A study of Mus musculus with 36 samples.

Results

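The genes described here are 38 mouse genes of glucose use and the hypoxia response, out of 27179 genes counted. They were listed by name, with no threshold on a measured value. The list was chosen with earlier results of these data known, so its shares beside those of all genes are descriptive. The list holds 2 glucose transporters, 16 genes of glycolytic enzymes, 6 genes of lactate and pyruvate handling, and 14 genes of the hypoxia-inducible factor (HIF) pathway and its targets. Expression was measured by RNA sequencing in the lymphoma lines AH47A, 287 and 621, labelled with the Em-myc background, in which a Myc transgene under an immunoglobulin enhancer gives B lineage tumours. Each line carried a negative control construct or 1 of 5 mutant TRP53 constructs, labelled G280, I192S, R246Q, R270H and V170M. Cultures were sampled untreated or after 12 hours with 5 µM nutlin-3a, which keeps MDM2 from binding p53, together with 25 µM of the caspase inhibitor QVD-OPH. With 1 library from every line (n = 3), there were 12 groups, and all 12 share the Myc transgene. Each line is a single tumour line and the labels name no repeat of a culture, so p-values measure the spread between these libraries. Whether untreated cultures also received QVD-OPH is not given, so a difference called a nutlin response covers both agents.

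Glycolysis splits glucose into pyruvate in the cytosol, and lactate dehydrogenase turns pyruvate into lactate when it is not sent to the mitochondria. HIF-1 is a transcription factor whose alpha subunit, the product of Hif1a, is hydroxylated by the EGLN enzymes in the presence of oxygen and then destroyed. When oxygen is low the subunit stays and binds sites with the core letters ACGTG or GCGTG. It then raises genes of glucose uptake, glycolysis and mitochondrial turnover. Several of these genes are also known targets of MYC, which binds CACGTG, and p53 is known to restrain glucose uptake and glycolysis in many cells.

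Libraries held 5404113 to 10718302 counts. Of the 38 genes, 36 had enough counts to be tested. The other 2 were set aside: Ldhb, the second lactate dehydrogenase gene, had 0 counts in all 36 libraries, and Eno2, the neuronal enolase, had 6 counts in all. Levels are CPM, counts scaled to a common normalised library size, fold changes are log2 values ± standard error, and a gene is called where its edgeR p-value, adjusted over all genes tested, is under 0.05. Counts on the mouse gene Trp53 were at 206 to 291 CPM in untreated controls and at 693 to 2587 CPM in untreated mutants. The design text calls the constructs human, and the source of the higher counts was not tested. The p53 target Cdkn1a was at 0.255 to 6.39 CPM in untreated libraries and 104 to 605 CPM after nutlin. After nutlin the control was the highest of the 6 constructs in each line, at 398, 605 and 234 CPM in AH47A, 287 and 621. The mutants were at 131 to 236, 294 to 504 and 104 to 176 CPM, in the same order. The 6 B lineage markers summed to 1198 to 1360 CPM untreated and 997 to 1140 CPM after nutlin in AH47A, without overlap. In 287 the sums were 1468 to 1600 and 1355 to 1555 CPM, and in 621 1300 to 1675 and 1112 to 1398 CPM, with overlap in both. In the control 4 of these 6 were called lower and 1 higher after nutlin, with Cd79a at -0.89 ± 0.16 (adjusted p = 0.000116) and Ptprc at 0.93 ± 0.24 (adjusted p = 0.00353). Cd79a was also called lower over the summed lines (-0.77 ± 0.15, adjusted p = 0.0199). The 8 myeloid markers summed to 3.78 to 24.3 CPM untreated and 5.99 to 58.3 CPM after nutlin. Itgam held most of these counts, while Lyz2 had at most 2 counts and Csf1r at most 6 in a library. The 7 T cell markers summed to 4.85 to 6.59 CPM untreated and 14.7 to 21.8 CPM after nutlin in line 287. In AH47A they summed to 2.74 to 9.19 and 3.58 to 8.03 CPM, which overlap, and in 621 to at most 0.493 CPM. Zap70 held most of these counts (1617 over all libraries), and Cd3e was at 0 counts in 35 of 36 libraries. Summed erythroid and fibroblast markers were at most 4.32 and 2.87 CPM. The part of these markers in the results was not tested. In bulk samples fewer cells of a type and less RNA per cell cannot be told apart. Gapdh had 2601 counts over all 36 libraries, far below Tpi1 with 136143. Gapdh and, less so, Eno1, Mif, Bnip3l, Ldha, Tpi1, Pgk1 and Pgam1 have near-identical copies or pseudogenes among which reads can be split, so their levels are uncertain.

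Promoter sequences are shown for 4 genes that fell together after nutlin, because they hold many, few or none of the letters ACGTG. They run 5′ to 3′ from 250 bases before to 50 bases after the RefSeq gene start in GRCm38.p6, and capitals mark every ACGTG on either strand (CACGT on the strand shown).
Ankrd37, chr8:45999801-46000100, minus strand: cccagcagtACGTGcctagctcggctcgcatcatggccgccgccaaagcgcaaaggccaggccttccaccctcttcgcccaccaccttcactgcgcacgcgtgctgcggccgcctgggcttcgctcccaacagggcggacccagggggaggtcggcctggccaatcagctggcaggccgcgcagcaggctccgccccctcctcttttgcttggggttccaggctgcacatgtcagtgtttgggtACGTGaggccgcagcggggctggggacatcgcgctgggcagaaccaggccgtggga
Bnip3, chr7:138909457-138909756, minus strand: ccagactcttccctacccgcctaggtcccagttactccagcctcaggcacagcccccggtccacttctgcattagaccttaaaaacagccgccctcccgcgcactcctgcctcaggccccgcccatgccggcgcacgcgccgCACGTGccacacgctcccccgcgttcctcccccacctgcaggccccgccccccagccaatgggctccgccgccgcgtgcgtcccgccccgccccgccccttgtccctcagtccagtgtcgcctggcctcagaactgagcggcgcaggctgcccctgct
Ldha, chr7:46845554-46845853, plus strand: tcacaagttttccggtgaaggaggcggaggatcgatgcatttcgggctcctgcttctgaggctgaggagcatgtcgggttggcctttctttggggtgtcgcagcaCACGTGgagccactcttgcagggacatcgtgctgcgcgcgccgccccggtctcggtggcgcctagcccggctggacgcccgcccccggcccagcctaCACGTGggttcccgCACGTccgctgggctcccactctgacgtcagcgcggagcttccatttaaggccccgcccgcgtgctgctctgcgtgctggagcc
Tpi1, chr6:124814109-124814408, minus strand: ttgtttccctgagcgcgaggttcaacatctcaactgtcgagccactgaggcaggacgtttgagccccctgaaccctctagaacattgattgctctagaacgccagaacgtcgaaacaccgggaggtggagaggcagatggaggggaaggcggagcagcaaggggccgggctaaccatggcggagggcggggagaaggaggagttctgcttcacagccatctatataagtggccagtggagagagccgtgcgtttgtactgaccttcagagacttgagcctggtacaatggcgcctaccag
Ankrd37 held 2 matches that are apart, Bnip3 2 that overlap in 1 CACGTG, and Ldha 5 in this first of its 2 windows, of which 4 lie in 2 CACGTG runs, with 0 in the other window. Tpi1 held 0. RefSeq windows matched 34 of the 38 genes, with 50 windows where alternative starts are counted. ACGTG was present in 28 of these windows (56.0%), against 19.6% of all 32851 mouse promoter windows. Among windows of the genes called lower in control cells after nutlin, described below, it was present in 19 of 28 (67.9%). CACGTG was present in 6 of the 50 windows (12.0%) and in 7.15% of all windows. ACGTG or GCGTG was present in 39 of the 50 windows (78.0%) and in 43.8% of all windows. The list was made to hold HIF targets, so shares above those of all windows can follow from its choice. A match describes these letters only and is not evidence that a factor binds.

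After nutlin, those of the 36 tested genes of this list that were called were nearly all lower. Other genes of these pathways, given by list below, were called in both directions. In the negative control 22 of the 36 genes tested were called lower and 1 higher, with 42.7% of all genes called in that comparison, 20.8% lower and 21.9% higher. The median log2 fold change of the 36 genes was -0.73, against -0.01 for all genes. With the counts of the 6 constructs summed within a line, so that the 3 lines are the replicates, 17 were called, all lower, against 9.85% of all genes, 2.94% lower and 6.91% higher. The median was then -0.77, and 16 genes were called in both comparisons. The share of all genes called in both is not given. In 21 of 36 genes (58.3%) the nutlin library was below its untreated partner in all 18 pairs of line and construct, a pattern held by 8.47% of all genes. In 13 genes (36.1%) the 6 nutlin values lay wholly below the 6 untreated values in each line, as for 3.33% of all genes. The additive model behind the control comparison treats libraries of a line as independent, so its p-values can be too small.

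**Figure D1:**
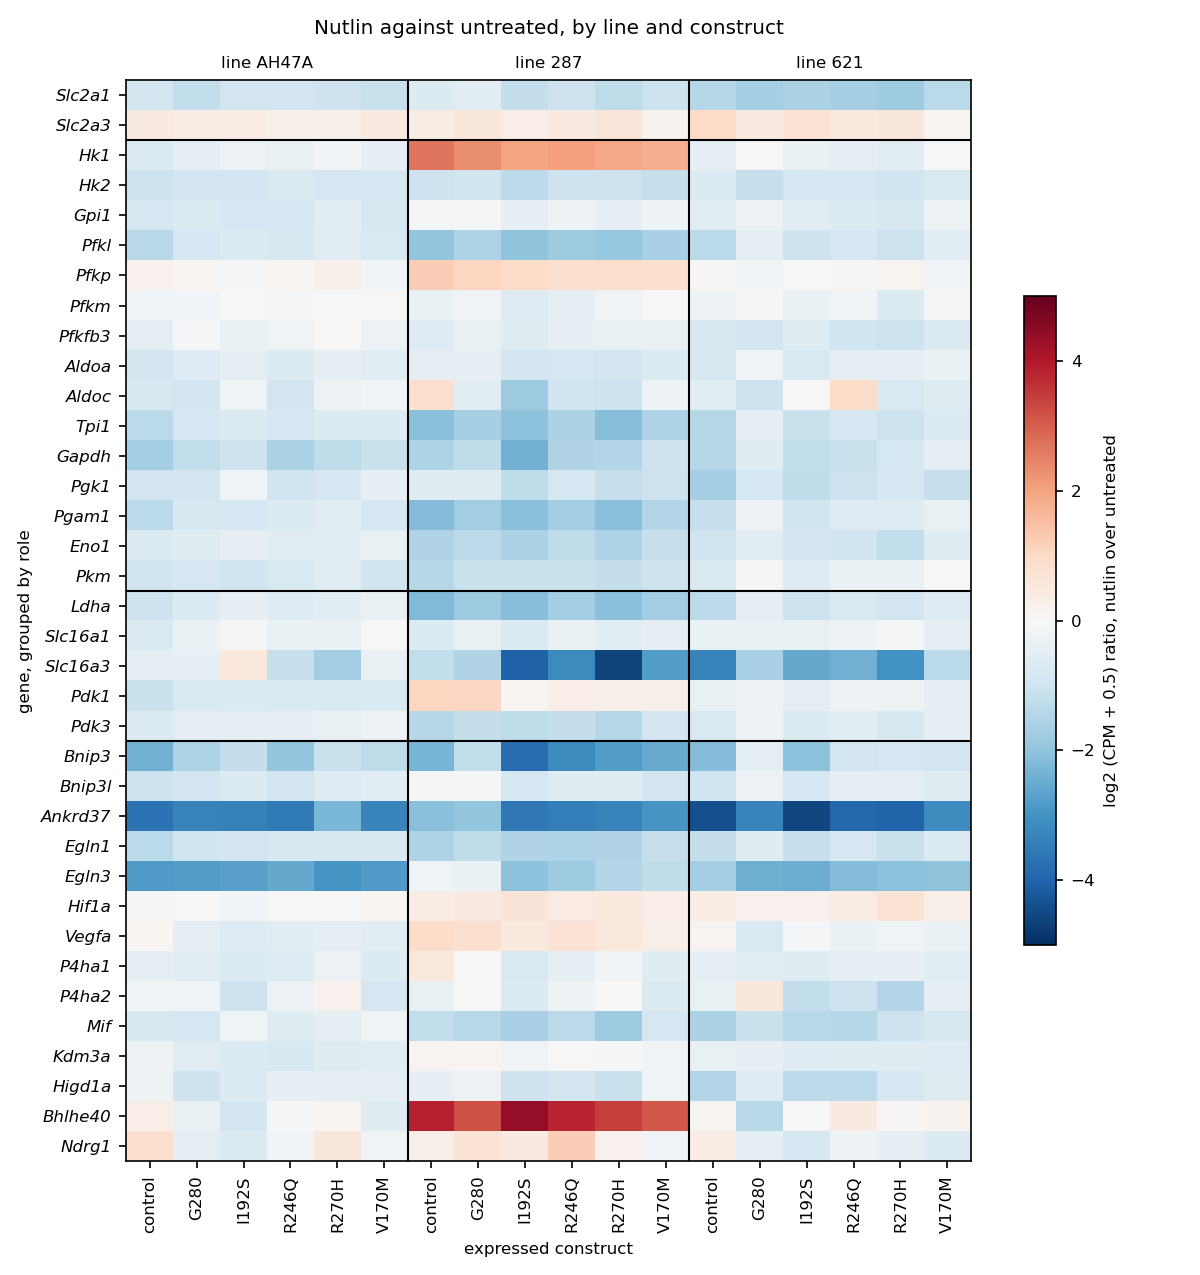
Heat map of the log2 ratio of (CPM + 0.5) after nutlin over untreated for the 36 tested genes (rows, grouped by role) in 18 pairs of line and construct (columns). Blue is lower after nutlin; 21 rows are blue in all 18 columns, Slc2a3 is red in all 18, and Bhlhe40, Hk1 and Pfkp are at 0.81 or above in line 287 and at 0.46 or below in the other lines.

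The 16 glycolytic enzyme genes together took 0.760% to 0.867% of all counts in untreated AH47A and 0.432% to 0.622% after nutlin. In line 287 their share was 0.444% to 0.536% untreated and 0.253% to 0.290% after nutlin, and in line 621 it was 0.761% to 0.887% and 0.446% to 0.744%. The share was lower after nutlin in every pair, and the 2 ranges did not overlap in any line. The control construct had the lowest share after nutlin in each line. The highest value after nutlin, 0.744%, came from the G280 library of line 621, which stood apart from the other 5 (0.446% to 0.602%).

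**Figure D2:**
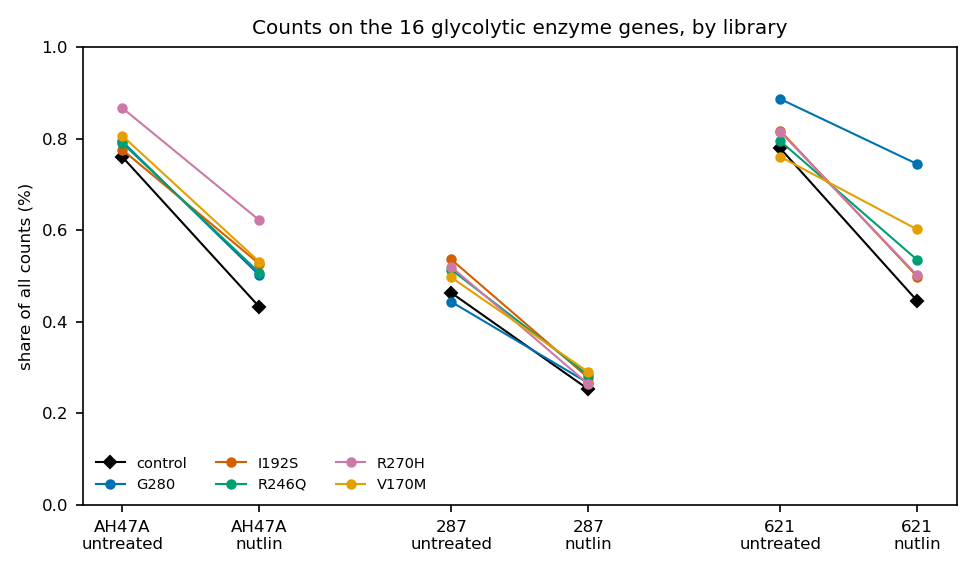
Share of all counts (%) on the 16 glycolytic enzyme genes in each library, with lines joining the untreated and the nutlin library of the same line and construct. All 18 joins go down, the control (black diamonds) ends lowest in each line, and line 287 starts and ends below the other lines.

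The 2 glucose transporters moved in opposite directions. Levels are given as the median over the 6 constructs of a line, with the lowest and highest in brackets. Slc2a1 (GLUT1, the main glucose importer of dividing cells, chromosome 4, 119108745 to 119137330 in GRCm38.p6) was at a median of 50.6 CPM (39.6 to 57.5) in untreated AH47A and at a median of 23.1 CPM (20.6 to 28.1) after nutlin. In line 287 it went from a median of 39.4 CPM (29.04 to 42.4) to a median of 18.3 CPM (16.8 to 20.04), and in line 621 from a median of 100.5 CPM (91.9 to 116) to a median of 35.5 CPM (29.99 to 36.2). All nutlin values lay below all untreated values of the same line. It fell in the control (-1.06 ± 0.19, adjusted p = 0.000112) and over the summed lines (-1.22 ± 0.16, adjusted p = 0.00484). Slc2a3 (GLUT3, a transporter of high glucose affinity) was at 26, 32.1 and 30.2 CPM in the untreated controls of AH47A, 287 and 621 and at 35.4, 41.1 and 59 CPM after nutlin. It rose in the control (0.59 ± 0.13, adjusted p = 0.00113), and was higher in all 18 pairs, a pattern held by 9.32% of all genes. Its ranges were apart in 287 and 621 and overlapped in AH47A. Over the summed lines its difference was 0.45 ± 0.14, adjusted p = 0.0814, and the control call was lost without line 621 (adjusted p = 0.0989).

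Of the 15 tested glycolytic enzyme genes, 11 were called lower in the control and 8 over the summed lines, and none was called higher in either. Their median log2 fold change was -0.93 in the control and -0.92 over the summed lines. Hk2, the hexokinase that commits glucose to the cell, went from a median of 219.8 CPM (202 to 240.2) to a median of 117 CPM (106 to 126) in AH47A, from a median of 170.3 CPM (158 to 182) to a median of 79.95 CPM (70.7 to 89.4) in 287 and from a median of 244 CPM (235 to 289.8) to a median of 133 CPM (128 to 154) in 621. The ranges were apart in all 3 lines, and Hk2 fell in the control (-0.93 ± 0.10, adjusted p = 2.71e-07) and over the summed lines (-0.97 ± 0.13, adjusted p = 0.00549).

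Among the phosphofructokinases, which catalyse the committed step of glycolysis, only the liver-type gene was called in the control and over the summed lines. Pfkl (chromosome 10, 77986947 to 78009807) was at a median of 274 CPM (257 to 293) in untreated AH47A, at a median of 256 CPM (220.5 to 272) in 287 and at a median of 274 CPM (269 to 312) in 621. After nutlin it was at a median of 162 CPM (97.04 to 196), a median of 71.8 CPM (59.01 to 83.1), and a median of 140.2 CPM (107 to 223), in the same order. The ranges of the lines overlapped before treatment, and after it 287 lay below both others, and the control was the lowest of the 6 constructs after nutlin in each line. The log2 fold change was -1.58 ± 0.26, adjusted p = 4.27e-05 in the control and -1.16 ± 0.22, adjusted p = 0.0247 over the summed lines. The platelet-type Pfkp (0.51 ± 0.23, adjusted p = 0.078) and the muscle-type Pfkm (-0.25 ± 0.18, adjusted p = 0.278) were not called in the control. Within single lines Pfkm was called lower in 621 (-0.27 ± 0.11, adjusted p = 0.0462), and Pfkp is given with the lines below. Pfkfb3, which makes the activator of phosphofructokinase, fell in the control (-0.65 ± 0.16, adjusted p = 0.00274) and missed the threshold over the summed lines (-0.53 ± 0.15, adjusted p = 0.0616). Its control call was lost without line 287 (adjusted p = 0.074).

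Of the tested enzyme genes of the later steps, all but Aldoc fell in the control. Aldoa, the main aldolase here, had medians of 1080, 429 and 1027 CPM in untreated AH47A, 287 and 621 and of 718, 245 and 734 CPM after nutlin, and fell by 0.72 ± 0.15 in the control (adjusted p = 0.000416). Over the summed lines the difference was -0.61 ± 0.14, adjusted p = 0.0362, a call lost without AH47A (adjusted p = 0.0969) or 287 (adjusted p = 0.0643). Its 621 ranges overlapped, with the G280 library at 1064 CPM. Tpi1, triose phosphate isomerase (chromosome 6, 124810586 to 124814158), went from a median of 614 CPM (602 to 694) to a median of 352 CPM (234 to 437) in AH47A. In 287 it went from a median of 442 CPM (378 to 481) to a median of 118 CPM (89.7 to 149.7), and in 621 from a median of 798 CPM (788 to 866) to a median of 412 CPM (298 to 628). No range overlapped, and the log2 fold change was -1.61 ± 0.26, adjusted p = 3.81e-05 in the control and -1.20 ± 0.22, adjusted p = 0.0225 over the summed lines.

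Gapdh, the dehydrogenase that follows, whose reads can be split among the copies named above, was at 12.9 to 15.7 CPM untreated and 4.12 to 6.54 CPM after nutlin in AH47A. It fell in the control (-1.69 ± 0.25, adjusted p = 1.1e-05). Pgk1, phosphoglycerate kinase, had medians of 65.8, 46.6 and 101 CPM untreated and 37.4, 23.6 and 47.4 CPM after nutlin in AH47A, 287 and 621 (control -1.07 ± 0.20, adjusted p = 0.00019). Pgam1, phosphoglycerate mutase, was at 426, 200.4 and 474 CPM in the 3 untreated controls and at 169, 44.2 and 215 CPM after nutlin (-1.54 ± 0.31, adjusted p = 0.000406). Eno1, the main enolase, was at 1112, 1027 and 1558 CPM and then at 678, 358 and 776 CPM (-1.08 ± 0.20, adjusted p = 0.000216). All 4 were also called over the summed lines, with log2 fold changes of -1.34 ± 0.22, -0.93 ± 0.15, -1.11 ± 0.26 and -0.94 ± 0.19. Of these Pgam1 lost its call without AH47A (adjusted p = 0.0832). Pkm, pyruvate kinase, fell in the control (-1.05 ± 0.21, adjusted p = 0.000384), from 2890, 1468 and 2221 CPM to 1437, 553 and 1352 CPM. Over the summed lines it just missed the threshold (-0.77 ± 0.20, adjusted p = 0.0506). Pkm passed without the 621 nutlin library of G280 (adjusted p = 0.0303), where it was at 2636 CPM. That library was left out after its high values were seen, so the pass adds no support. Gpi1, which turns glucose phosphate into fructose phosphate, fell in the control (-0.47 ± 0.16, adjusted p = 0.0209), a call lost without AH47A (adjusted p = 0.131) or 621 (adjusted p = 0.0948). Aldoc, the brain-type aldolase, had a median of 1.42 CPM in untreated libraries and was not called.

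Per length of gene model, the untreated levels were led by Ldha with a median of 1154 CPM per kilobase, Pkm with 929, Eno1 with 677 and Aldoa with 560. Hk2 was at 39.9 and Slc2a1 at 19.7 CPM per kilobase.

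Of the 5 tested genes that decide the fate of pyruvate and lactate, 3 were called lower in the control. Ldha, which turns pyruvate into lactate (chromosome 7, 46842274 to 46855627), went from a median of 2227 CPM (2076 to 2333) to a median of 1440 CPM (1078 to 1759) in AH47A. In line 287 it went from a median of 1643 CPM (1427 to 1766) to a median of 406 CPM (323 to 518), the deepest fall of the 3 lines, and in 621 from a median of 2706 CPM (2616 to 3111) to a median of 1502 CPM (1095 to 2273). Ranges were apart in each line. The control changed by -1.50 ± 0.32, adjusted p = 0.00064, and over the summed lines Ldha just missed the threshold (-1.12 ± 0.28, adjusted p = 0.0512). Ldha was called without the 621 nutlin library of G280 (adjusted p = 0.0368). This omission too was chosen after seeing the data, so the call adds no support.

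Slc16a1 (MCT1, which carries lactate across the membrane) fell modestly in the control, from 530.3, 372 and 592 CPM to 323, 232 and 469 CPM (-0.57 ± 0.14, adjusted p = 0.00228), and was not called over the summed lines (-0.38 ± 0.14, adjusted p = 0.101). Slc16a3 (MCT4, an exporter of lactate and a HIF target) was uneven between lines. In line 621 it was at 34.8 to 86.05 CPM untreated and 2.96 to 27.6 CPM after nutlin, in 287 at 1.82 to 16.3 and 0 to 0.929 CPM. In AH47A the R270H libraries held 24.9 and 7.09 CPM while all others were at or under 1.67 CPM. It was called over the summed lines (-2.53 ± 0.45, adjusted p = 0.0287), a call lost without AH47A (adjusted p = 0.0511), and not in the control (-2.79 ± 1.34, adjusted p = 0.0951), where it passed without AH47A (adjusted p = 0.0186). The pyruvate dehydrogenase kinases, which block entry of pyruvate into mitochondrial metabolism, parted ways. Pdk3 fell in the control (-0.94 ± 0.20, adjusted p = 0.000674), from 56.9, 22.5 and 48.6 CPM to 34.99, 8.01 and 28.1 CPM, and reached the threshold over the summed lines (-0.77 ± 0.20, adjusted p = 0.0495). The latter call was lost without any 1 of the lines (adjusted p = 0.0535 to 0.0886). Pdk1 was not called in either (-0.07 ± 0.29, adjusted p = 0.863 in the control), though the control passed without 287 (adjusted p = 0.0138), and it moved in opposite directions in different lines, as given below.

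Of the 14 HIF pathway genes and targets, 7 were called lower in the control, 6 of them also over the summed lines, and none was called higher. Ankrd37, an ankyrin-repeat gene and HIF-1 target (chromosome 8, 45996908 to 46000414; its promoter opens the list above), fell furthest of the 36 in the control and over the summed lines. It went from a median of 61.6 CPM (49.5 to 65.7) to a median of 5.54 CPM (3.396 to 10.6) in AH47A, from a median of 15.6 CPM (6.84 to 20.2) to a median of 1.24 CPM (0.928 to 1.59) in 287 and from a median of 72.2 CPM (70.2 to 79.6) to a median of 4.35 CPM (2.81 to 7.58) in 621. The control changed by -3.87 ± 0.35, adjusted p = 8.12e-09, and over the summed lines it was -3.58 ± 0.19, adjusted p = 4.67e-05. The ranges did not overlap in any line. In line 287 alone, Slc16a3 (-4.10 ± 1.07, adjusted p = 0.00182) and the low-count P4ha2 (-3.90 ± 1.45, adjusted p = 0.0195) had larger falls than Ankrd37 (-3.42 ± 0.26).

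Bnip3, a receptor that sends mitochondria to autophagy (chromosome 7, 138890836 to 138909506), was at 65.8, 9.42 and 60.1 CPM in the untreated controls of AH47A, 287 and 621 and at 11.9, 1.48 and 12.9 CPM after nutlin (-2.38 ± 0.52, adjusted p = 0.000919). With the mutants included, the nutlin libraries ran over 11.9 to 45.1 CPM in AH47A, 1.48 to 3.19 in 287 and 12.9 to 64.6 in 621, with the control at the bottom of each range. Over the summed lines it just missed the threshold (-1.79 ± 0.41, adjusted p = 0.0538). Its relative Bnip3l fell less, with a control difference of -0.69 ± 0.17, adjusted p = 0.00195 and one of -0.65 ± 0.14, adjusted p = 0.026 over the summed lines. Both Bnip3l calls were lost without AH47A (adjusted p = 0.0637 and 0.0859) or without 621 (adjusted p = 0.0732 and 0.0654).

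Both oxygen-sensing hydroxylase genes fell. Egln1 (PHD2, the main enzyme that marks HIF alpha for destruction, chromosome 8, 124908587 to 124949254) went from a median of 137 CPM (130.4 to 143) to a median of 73.8 CPM (50.8 to 82.3) in AH47A. In 287 it went from a median of 70.7 CPM (56.98 to 79.1) to a median of 25.1 CPM (21.9 to 30.5), and in 621 from a median of 129.9 CPM (118 to 140.5) to a median of 65.6 CPM (51.97 to 91.5). The log2 fold change was -1.36 ± 0.17, adjusted p = 1.42e-06 in the control and -1.10 ± 0.16, adjusted p = 0.00734 over the summed lines. Egln3 (PHD3, itself strongly HIF-inducible) went from a median of 97.04 CPM (69.6 to 123) to a median of 13.1 CPM (9.47 to 17.02) in AH47A and from a median of 71.1 CPM (54.99 to 121) to a median of 16.6 CPM (10.2 to 21.9) in 621. In 287, at a median of 8.45 CPM (3.95 to 21.1) untreated and a median of 3.66 CPM (1.701 to 4.79) after nutlin, its ranges overlapped. It fell by 1.89 ± 0.47 in the control (adjusted p = 0.00262), a call lost without AH47A (adjusted p = 0.126), and differed by -2.17 ± 0.26, adjusted p = 0.00419 over the summed lines.

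Mif, a cytokine and HIF target, was at 141, 119 and 183 CPM in the untreated controls and at 81.4, 50.1 and 60.1 CPM after nutlin (-1.21 ± 0.22, adjusted p = 0.000144; summed lines -1.04 ± 0.19, adjusted p = 0.0172). Higd1a, a hypoxia-inducible protein of the mitochondrial inner membrane, was at 17.3, 14.4 and 27.4 CPM in the same untreated controls and at 14.3, 10.8 and 9.62 CPM after nutlin (-0.71 ± 0.22, adjusted p = 0.0126; summed lines -0.76 ± 0.17, adjusted p = 0.0333). Both Higd1a calls were lost without line 621 (adjusted p = 0.307 and 0.137), the second also without AH47A (adjusted p = 0.0558). Hif1a itself was not called in the control (0.26 ± 0.12, adjusted p = 0.0755) or over the summed lines (0.28 ± 0.14, adjusted p = 0.214), with medians of 185, 155 and 251 CPM untreated and 188, 213 and 310.4 CPM after nutlin. The angiogenic factor Vegfa, the collagen hydroxylases P4ha1 and P4ha2, the histone demethylase Kdm3a, the repressor Bhlhe40 and the stress gene Ndrg1 were not called in either comparison. In the control, Hif1a passed as higher without AH47A (adjusted p = 0.0136), and P4ha1 and Kdm3a as lower without 287 (adjusted p = 0.015 and 0.0439). P4ha2 was at most at 23 counts in a library and Ndrg1 at most at 67.

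**Figure D3:**
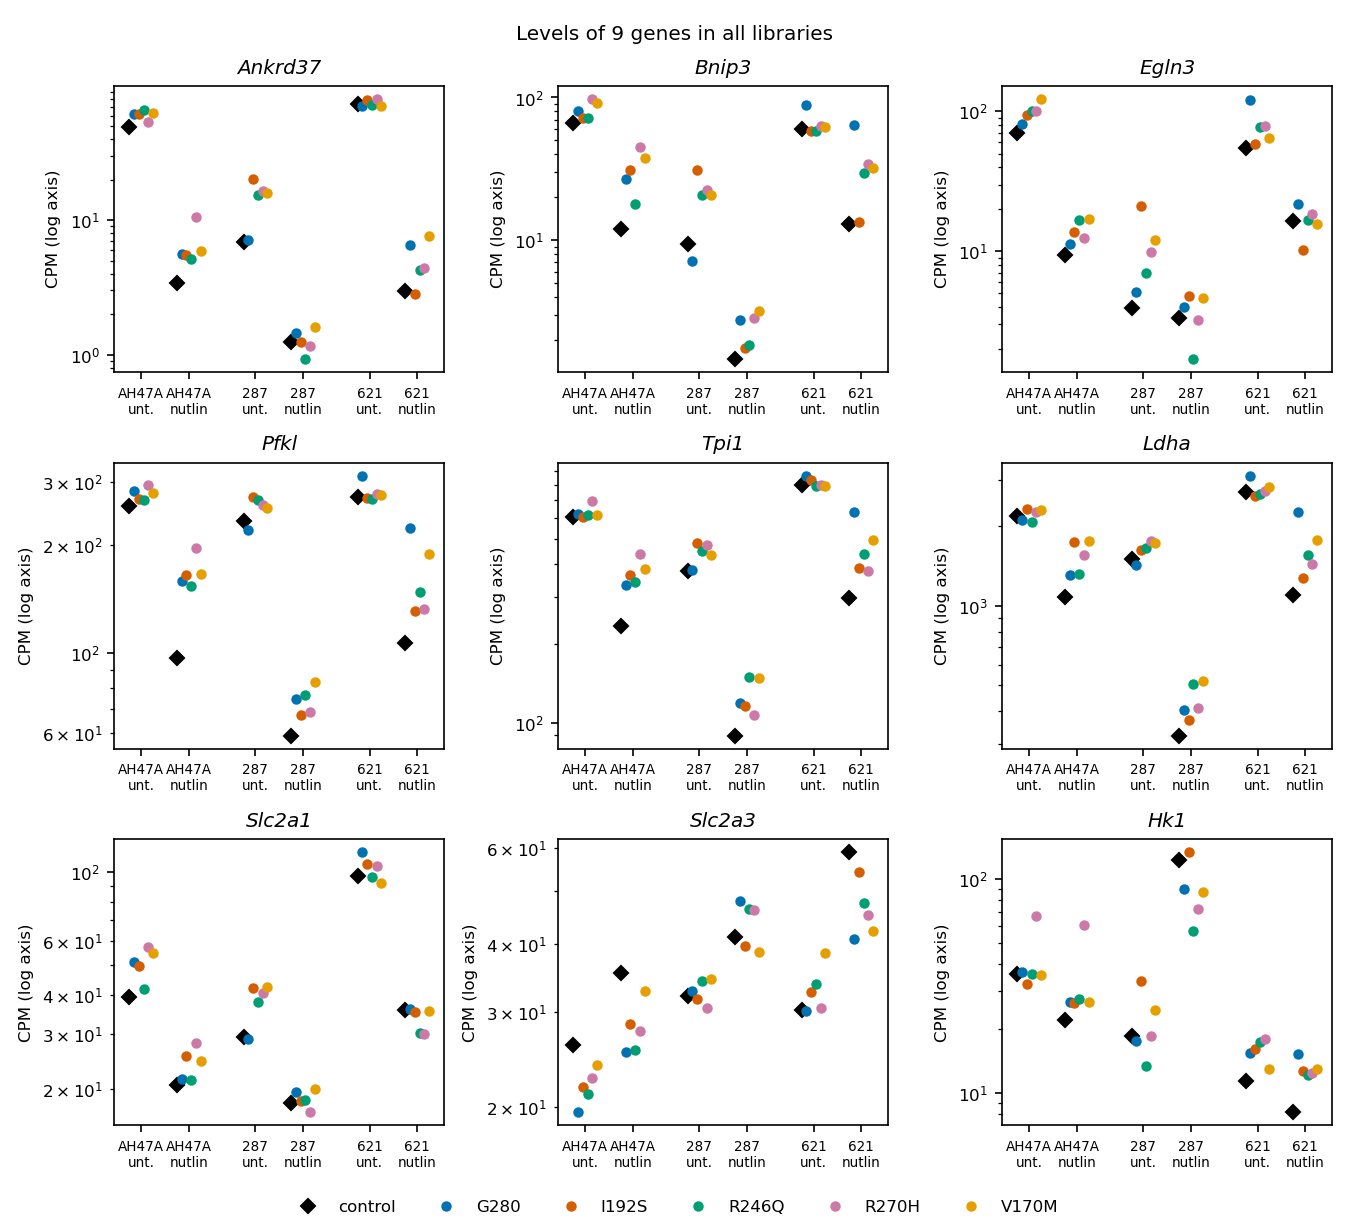
Levels of 9 genes (CPM, log axis) in all 36 libraries, by line and treatment (unt. = untreated), with the control as black diamonds and the 5 mutants as coloured points. Ankrd37, Pfkl, Tpi1, Ldha and Slc2a1 are lower after nutlin in each line without overlap, Slc2a3 is higher in every pair, and Hk1 rises without overlap in line 287.

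With each mutant nearly all of the listed genes that were called were lower. With G280, 15 of the 36 genes were called lower and 1 higher after nutlin, where 6.7% of all genes were called lower and 10.7% higher (17.4% in all). For I192S there were 25 and 1 (11.2% and 13.6% of all genes, 24.9% in all), for R246Q 23 and 1 (9.41% and 12.1%, 21.6% in all), for R270H 23 and 2 (14.3% and 15.8%, 30.2% in all) and for V170M 16 and 0 (2.45% and 5.77%, 8.22% in all). Slc2a1, Hk2, Pfkl, Tpi1, Gapdh, Pgk1, Eno1, Ankrd37, Egln1 and Egln3 were called lower with all 6 constructs. Over all genes that share can be at most 2.45%, the share called lower with V170M. The log2 fold change of Ankrd37 was -3.19 ± 0.32, -4.09 ± 0.33, -3.89 ± 0.34, -3.29 ± 0.31 and -3.33 ± 0.32 in that order of mutants. That of Pfkl was -0.90 ± 0.25, -1.25 ± 0.25, -1.16 ± 0.25, -1.15 ± 0.25 and -0.96 ± 0.25 in the same order, each smaller in size than the control's -1.58 ± 0.26, though no difference in response was called. How many genes were called in a mutant does not show that its response differs from another's, which was tested separately below.

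The 3 lines differed in how far these genes moved. In a model with a term for each line's response, and the 6 constructs as replicates within a line, 26 genes were called lower and 1 higher in AH47A (43.6% of all genes called), 25 lower and 7 higher in 287 (71.9%), and 28 lower and 2 higher in 621 (55%). The lower calls were shared by all 3 lines in 23 genes. Over all genes that share can be at most 22.2%, the share called lower in AH47A. Slc2a3 was called higher in all 3 lines, by 0.38 ± 0.09 in AH47A, 0.41 ± 0.09 in 287 and 0.56 ± 0.09 in 621. An F test of the difference between the lines' responses was passed by 23 of the 36 genes (63.9%), with 60.3% of all genes called. The share is close to that of all genes.

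Among the 23 genes that differed, 11 fell furthest in line 287: Pfkl, Tpi1, Gapdh, Pgam1, Eno1, Pkm, Ldha, Pdk3, Bnip3, Egln1 and Mif. The share of all genes that fell furthest in 287 is not given. More of all genes were called lower in 287 (35.7%) than in AH47A (22.2%) or 621 (28.6%). For Ldha the log2 fold change was -1.95 ± 0.10 in 287, -0.84 ± 0.10 in 621 and -0.61 ± 0.10 in AH47A (F test adjusted p = 4.27e-08). Slc2a1 and Pfkfb3 fell furthest in 621, at -1.59 ± 0.09 and -0.87 ± 0.07. Egln3 fell furthest in AH47A, by 2.82 ± 0.26, against -1.38 ± 0.36 in 287 and -2.19 ± 0.26 in 621 (F test adjusted p = 0.0313). That difference was lost without the control, R270H or V170M libraries (adjusted p = 0.122, 0.0977 and 0.0801). Gapdh lost its difference without the G280, R270H or V170M libraries (adjusted p = 0.0615 to 0.087) or the 621 nutlin library of G280 (adjusted p = 0.0593), and P4ha1 without 4 of the 6 constructs in turn (adjusted p = 0.0592 to 0.318).

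The other large differences were rises seen in line 287. Pfkp, the platelet-type phosphofructokinase, went from a median of 248 CPM (234 to 276) to a median of 491 CPM (417 to 549.6) in 287 (0.96 ± 0.07, adjusted p = 1.97e-13), while it differed by 0.08 ± 0.07 in AH47A and -0.02 ± 0.07 in 621. It had the lowest F test p-value of the 36 (adjusted p = 1.18e-09). Hk1, the hexokinase of most tissues, went from a median of 18.5 CPM (13.3 to 33.4) to a median of 88.3 CPM (57.4 to 133) in 287 (2.17 ± 0.24, adjusted p = 4.86e-08), with no call in AH47A (-0.38 ± 0.24) or 621 (-0.29 ± 0.29). Bhlhe40, a repressor induced by hypoxia, was at 0 to 0.447 CPM in untreated 287, where no library had over 4 counts, and at 6.49 to 14.5 CPM after nutlin (5.14 ± 0.51; F test adjusted p = 1.77e-07). In AH47A it was at 34.5 to 86.5 CPM untreated and 21.8 to 67.6 CPM after nutlin, and in 621 at 3.61 to 7.31 and 2.45 to 7.33 CPM. Both pairs of ranges overlap. Pdk1 rose in 287, from a median of 100.4 CPM (70.3 to 110.4) to a median of 127 CPM (118 to 170.5) (0.52 ± 0.10, adjusted p = 8.83e-05), and fell in AH47A (-0.79 ± 0.10, adjusted p = 8.58e-07) and 621 (-0.34 ± 0.10, adjusted p = 0.00553). Vegfa likewise rose in 287 (0.63 ± 0.09, adjusted p = 9.29e-07) and fell in AH47A (-0.44 ± 0.10, adjusted p = 0.000527) and 621 (-0.25 ± 0.10, adjusted p = 0.0337). Hif1a rose in 287 (0.45 ± 0.05, adjusted p = 6.42e-09) and 621 (0.36 ± 0.05, adjusted p = 6.69e-07), where its ranges did not overlap, and was not called in AH47A at 0.00 ± 0.05, adjusted p = 0.959.

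**Figure D4:**
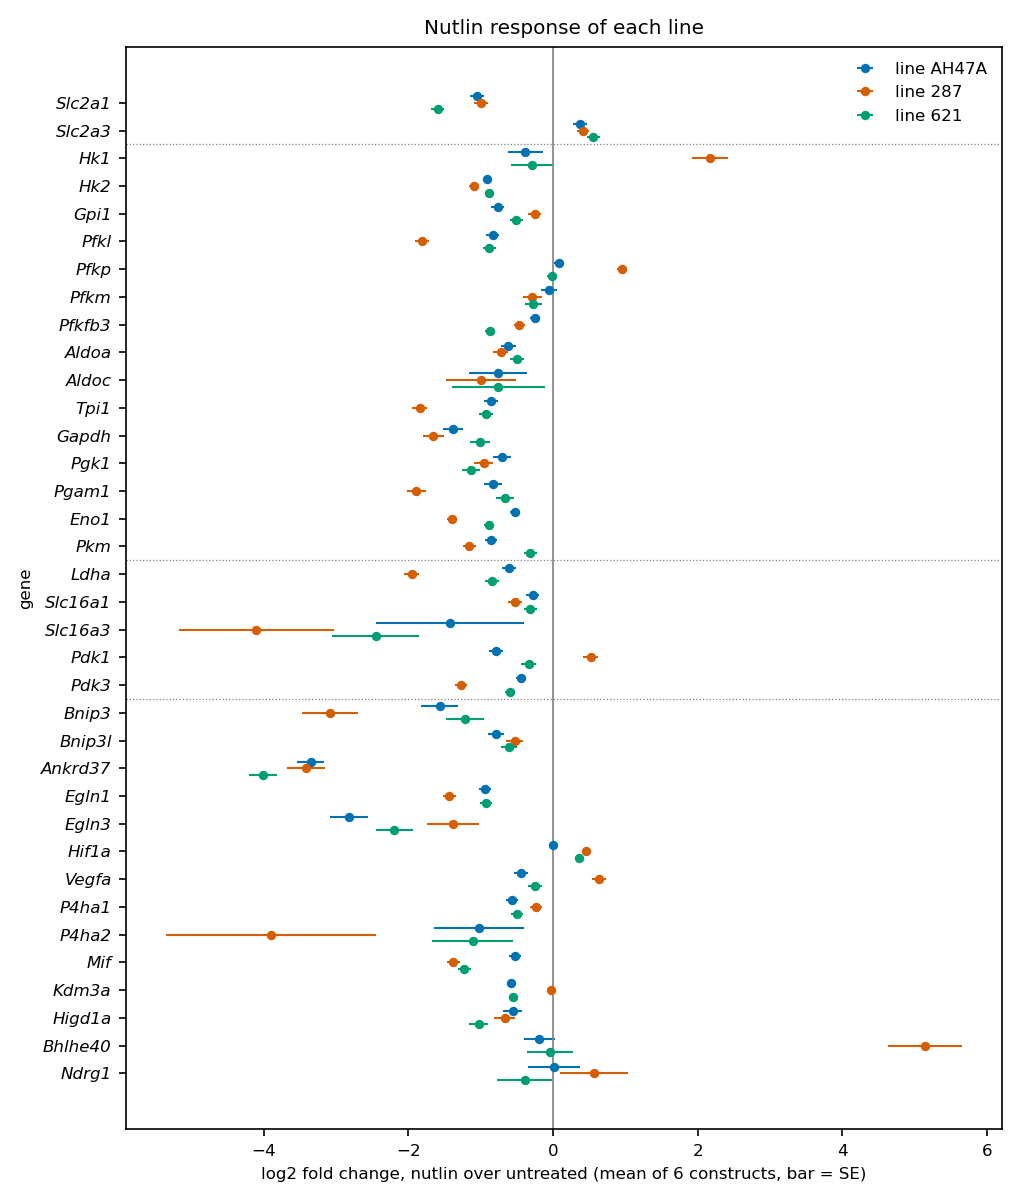
Log2 fold change after nutlin (x axis) of the 36 tested genes in each line, as the mean over 6 constructs with the standard error as bars; dotted lines part the role groups. Most points lie left of 0 for all lines, the orange points of 287 lie furthest left for Pfkl, Tpi1, Pgam1 and Ldha, and they lie right of 0 for Hk1, Pfkp, Pdk1, Vegfa and Bhlhe40.

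Before treatment the lines already differed. The F test between untreated lines was passed by 35 of the 36 genes, all but Pfkl, with 79.3% of all genes called. Line 287 had the lowest median of the 3 lines in 31 genes. Line 621 was highest in 21, AH47A in 14 and 287 in 1, Slc2a3. The shares of all genes with these orders are not given, so the counts have no background beside them. Untreated Ankrd37 had a median of 61.6 CPM in AH47A, 15.6 in 287 and 72.2 in 621, and untreated Egln3 had medians of 97.04, 8.45 and 71.1 CPM. The range of 287 lay below both other lines for each of these genes.

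The mutant constructs were set against the control within each treatment, all against the same 3 control libraries. In untreated cells 0 of the 36 genes were called for the mean of the 5 mutants by edgeR, with 0.0162% of all genes called. At an unadjusted p under 0.05 there were 6, against 275 of all 12321 genes tested, and DESeq2 called 0. The fold change was above 0 in 32 of 36, with a median log2 fold change over all genes of 0.0023. Each single mutant also had 0 calls, with 0.00812% of all genes called in each. After nutlin 10 genes were called higher in the mean of the mutants than in the control and 0 lower, or 27.8% of those tested against 16% of all genes, 7.22% higher and 8.76% lower. They were Pfkl, Tpi1, Pgam1, Eno1, Pkm, Ldha, Pdk3, Bnip3, Egln1 and Mif, all called lower in the control's own response, a comparison that uses the same control libraries. The control was the lowest of the 6 constructs after nutlin in all 3 lines for Pfkl, Tpi1, Pgam1, Pkm, Ldha, Pdk3, Bnip3 and Egln1, 8 of 36 genes (22.2%) against 4.12% of all genes. In untreated cells it was the lowest in all 3 lines for Egln3 and Vegfa, 2 of 36 genes (5.56%) against 0.56% of all genes.

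Of the 10 called genes Bnip3 differed most. After nutlin in AH47A it was at 11.9 CPM in the control and at 26.9, 31.1, 17.9, 45.1 and 37.6 CPM with G280, I192S, R246Q, R270H and V170M. In 621 the control was at 12.9 CPM and the mutants, in that order, at 64.6, 13.4, 29.5, 34.03 and 32.02 CPM. The mean of the mutants was higher by 1.30 ± 0.40, adjusted p = 0.0277, a call lost without AH47A (adjusted p = 0.276) or 621 (adjusted p = 0.0876). For Tpi1 the control was at 234, 89.7 and 298 CPM in AH47A, 287 and 621, and the lowest mutant in each line at 335, 108 and 378 CPM. The difference was 0.61 ± 0.11, adjusted p = 0.000507. Pfkl (0.58 ± 0.11, adjusted p = 0.00062), Ldha (0.52 ± 0.12, adjusted p = 0.00298) and Pdk3 (0.37 ± 0.09, adjusted p = 0.00342) were higher too, and these and Tpi1 kept their calls without any 1 line. Egln1 (0.44 ± 0.10, adjusted p = 0.00292) and Mif (0.30 ± 0.10, adjusted p = 0.0397) lost theirs without AH47A (adjusted p = 0.107 and 0.264), and Mif also without 621 (adjusted p = 0.3). Pgam1, Eno1 and Pkm differed by 0.53 ± 0.15, 0.27 ± 0.08 and 0.37 ± 0.10. Pgam1 lost its call without any 1 line (adjusted p = 0.0579 to 0.0855), Eno1 without AH47A or 287 (adjusted p = 0.134 and 0.153), and Pkm without 621 (adjusted p = 0.0737). The call of Mif was also lost without the 621 nutlin library of G280 (adjusted p = 0.0544). In the additive model, whose spread includes the differences between the lines' responses, none of the 10 passed. Of the B lineage markers, Cd79b was higher in the mutants after nutlin (0.24 ± 0.08, adjusted p = 0.0376) and Ptprc lower (-0.27 ± 0.09, adjusted p = 0.0403), and their part in the result was not tested. After nutlin Mdm2 was, like Cdkn1a, highest in the control in each line, at 440, 1420 and 365 CPM in AH47A, 287 and 621. The part of these differences in the result was also not tested.

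Among single mutants after nutlin, G280 had 10 genes higher than the control (5.39% of all genes higher and 5.11% lower, 10.5% in all) and I192S 0 (1.16% and 1.5%, 2.66% in all). R246Q had 5 (3.28% and 2.78%, 6.06% in all), R270H 3 (1.96% and 1.68%, 3.64% in all), and V170M 10 higher and 2 lower (7.76% and 9.84%, 17.6% in all). For I192S, 7 genes were under an unadjusted p of 0.05 in edgeR, as were 2153 of all 12321 genes tested. The lowest adjusted p for I192S was 0.0629, for Tpi1. The 2 lower genes with V170M were Pfkp (-0.30 ± 0.09, adjusted p = 0.0266) and Vegfa (-0.40 ± 0.14, adjusted p = 0.041). Ankrd37 was not called in any mutant after nutlin and differed by 0.72 ± 0.33, adjusted p = 0.143 for the mean of the 5. Slc2a1 differed by 0.06 ± 0.11, adjusted p = 0.774 and Hk2 by -0.03 ± 0.07, adjusted p = 0.823.

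The difference in response, the mutants' change after nutlin minus the control's, was called for 0 of 36 genes in edgeR, against 3.38% of all genes. In that test 10 genes were under an unadjusted p of 0.05, as were 2148 of all 12321 genes tested. The lowest adjusted p of the 36 was 0.0564, and DESeq2 called 4, with 2 in each direction. No single mutant's response differed from the control's in a called gene, with 0 to 3.64% of all genes called. F tests among the 5 mutants called 0 of 36 genes untreated, after nutlin and in response, against 0.0812%, 0.0243% and 0% of all genes. At an unadjusted p under 0.05 they gave 0, 7 and 1 genes, against 276, 1485 and 270 of all 12321 genes tested. DESeq2 called 1 gene after nutlin and 0 in the others. A p-value that misses the threshold does not show that the mutants act alike.

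**Figure D5:**
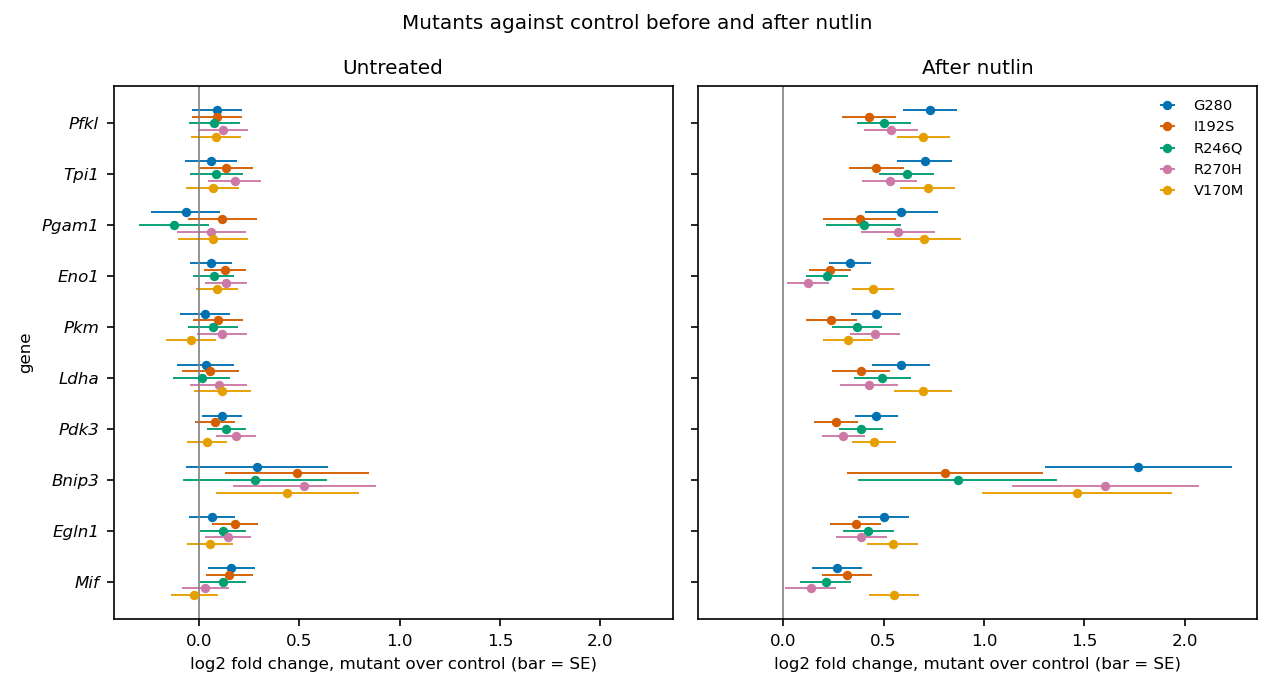
Log2 fold change of each mutant over the control, untreated (left) and after nutlin (right), for the 10 genes called higher in the mean of the mutants after nutlin; bars are standard errors. Untreated points lie between -0.13 and 0.52, and after nutlin all 50 points lie above 0, with Bnip3 furthest to the right. Points above 0 after nutlin follow largely from this choice of genes and from the shared control libraries.

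Other genes of these pathways are given by list. In the control comparison 42.7% of all genes were called, 21.9% higher and 20.8% lower, and shares near these are not a result about a list. Of 13 tested other glycolysis genes, 4 were called higher and 3 lower in the control, with a median of 0.22, and none over the summed lines (8 of 13 were above 0). The largest was Slc2a9, a urate and glucose transporter, at 3.12 ± 0.62, adjusted p = 0.000341. Of 11 tested genes of pyruvate dehydrogenase and pyruvate import, 5 were lower and 1 higher, led by Pcx, pyruvate carboxylase (-1.0 ± 0.23, adjusted p = 0.00135), and Pdp2, a phosphatase of pyruvate dehydrogenase (-0.79 ± 0.14, adjusted p = 0.000151). In the pentose phosphate pathway 3 of 7 were lower, among them its first enzyme G6pdx (-0.99 ± 0.26, adjusted p = 0.0035), whose reads can be split with its copy G6pd2, and 1 was higher. Of 8 tested glycogen genes 2 were lower and 1 higher, the glycogen primer Gyg at 1.17 ± 0.20, adjusted p = 7.12e-05.

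Against the same shares of all genes, of 11 other HIF pathway genes 4 were higher and 3 lower in the control. They included Epas1, which encodes the HIF-2 alpha subunit, at 1.46 ± 0.59, adjusted p = 0.0468, and Egln2 (PHD1), at -0.72 ± 0.17, adjusted p = 0.00151. Of 26 other HIF targets 10 were lower and 4 higher, with a median of -0.04, against -0.70 for the 14 HIF genes described above. Ak4, a mitochondrial adenylate kinase, was lower (-1.23 ± 0.31, adjusted p = 0.00262), and Ddit4 (REDD1), an inhibitor of mTOR that p53 also raises, was higher (1.63 ± 0.35, adjusted p = 0.000678). Car9 and Lox, often used as hypoxia markers, were set aside for low counts. Among 10 energy regulators 3 were higher and 2 lower, close to the 42.7% of all genes called, with Foxo3 at 2.06 ± 0.36, adjusted p = 9.24e-05. Of 6 tested p53-linked glucose genes 2 were higher and 1 lower. Sesn2, a sestrin that p53 induces, rose by 4.06 ± 0.48 (adjusted p = 8.21e-07), and Tigar, a phosphatase known in human cells as a p53 target, fell by 0.64 ± 0.19 (adjusted p = 0.00842).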

How the data were processed

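The authors deposited raw read counts for 27179 mouse genes in 36 libraries, and all 36 single-library files matched the columns of the joint table. The submitters' processing notes name mm10 (GRCm38), featureCounts and bcl2fastq 1.8.4. Not given in the sources used here: the aligner, annotation, strand setting and treatment of multi-mapping reads, so overlapping antisense reads cannot be told apart. Gene length, also deposited by the authors, was used for CPM per kilobase. The TRP53 constructs are called human in the design text, and only mouse genes were counted. Mouse Trp53 counts were nonetheless higher with every mutant than with the control in each line and treatment. The species of the constructs was not tested.

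Counts were normalised by TMM and tested with edgeR 4.0.16 (quasi-likelihood) in R 4.3.3. With filterByExpr (minimum count 10), 12321 genes with 99.94% of counts were tested and 14858 set aside. Control and mutant responses came from 12 groups plus line (coefficient of variation 15.96%, 22 residual degrees of freedom). Line differences and mutants minus control came from a model with a response term per line (9.68%, 20). The summed libraries, 12986 genes tested, had 2 residual degrees of freedom. Benjamini-Hochberg adjustment ran over all genes tested, with a threshold of 0.05. Models were also run on simulated counts, whose outcome is not given and adds no support here. Alternatives used DESeq2 1.42.0, limma 3.58.1, no low-count filter, no line block, and omission of lines, libraries or constructs.

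Libraries were paired by the line in their labels: deviations from group means correlated in all 198 same-line pairs (r = 0.629 to 0.929), and at most -0.113 between lines. Each group held 1 library per line, so centring on its mean pushes correlations between lines below 0. The value between lines is thus partly built in. The genes and lists were chosen with earlier results of these data known. All 38 were described, in full where called in both the control and the summed lines or among the 4 lowest F test p-values. From other lists at most 3 called genes with the largest control change were named. HIF core letters were counted in RefSeq promoter windows of GRCm38.p6.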

Additional observations from a re-analysis of the deposited data

Results flagged for a closer look

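For 23 genes the response to nutlin differed between the 3 lines by the F test of that difference, the 6 constructs serving as a line's replicates, and 60.3% of all genes called. The falls were deepest in line 287 for Pfkl (adjusted p = 4.07e-07), Tpi1 (adjusted p = 8.54e-07), Gapdh (adjusted p = 0.025), Pgam1 (adjusted p = 8e-06), Eno1 (adjusted p = 3e-07), Pkm (adjusted p = 1.02e-05) and Ldha (adjusted p = 4.27e-08), all of glycolysis and lactate production. The same held for Pdk3 (adjusted p = 4.44e-07), Bnip3 (adjusted p = 0.00699), Egln1 (adjusted p = 0.000869) and Mif (adjusted p = 1.63e-06). The shares of all genes that fell furthest in each line are not given. Line 287 rose, or fell least, for Hk1 (adjusted p = 2.22e-06), Pfkp (adjusted p = 1.18e-09), Bhlhe40 (adjusted p = 1.77e-07), Pdk1 (adjusted p = 1.94e-07) and Vegfa (adjusted p = 2.78e-07), for Gpi1 (adjusted p = 0.00409), P4ha1 (adjusted p = 0.0437), Kdm3a (adjusted p = 6.15e-07) and Egln3 (adjusted p = 0.0313), and for Hif1a (adjusted p = 1.37e-05). Line 621 fell furthest for Slc2a1 (adjusted p = 0.000326) and Pfkfb3 (adjusted p = 2.83e-05). Single samples that lie far from their group were not looked for with a test, since groups held 3 libraries each.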

How the results depend on the processing

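The counts of called genes in the control response (23), the line difference (23) and the difference between untreated lines (35) held within 1.5 times under every alternative tried, except the fit without a replicate block for line, which left 5 in the control response (19 to 25 when a line or library was left out). Over the summed lines 17 became 0 without the replicate block and 11 without AH47A, with 11 to 21 over omitted lines and libraries and 24 with DESeq2. The 10 genes higher in the mutants after nutlin became 0 without the replicate block, 0 in the additive fit, and 5 to 14 when a line or a control library was left out: 5 without AH47A, 6 without 621, and 5 without the control's nutlin library of either. For the response difference, called for 0 genes, leaving out a control library gave 0 to 1, DESeq2 4 and omission of the 621 nutlin library of G280 3, an omission chosen after seeing the data. DESeq2 gave 1 for the difference among the mutants after nutlin. No fold change reversed among the calls tested. Counts over all genes moved by over 1.5 times in the control response (5260; 1423 without the block, 2942 with control libraries only, 2758 without 287, 3240 without its untreated control). They did so over the summed lines (1279; 3 without the block, 640 without the control, 2942 with the control only, 1937 unfiltered, 2450 with DESeq2) and for the mutants after nutlin (1969; 0 without the block, 123 in the additive fit, 1200, 1055 and 982 without AH47A, 287 and 621, and 1086 and 1023 without the control's nutlin library of AH47A or 621). For the response difference they went from 416 to 0 without the block or in the additive fit, 64, 3 and 75 without AH47A, 287 and 621, 70 to 205 without an untreated control library, 157 without the control's nutlin library of 621 and 640 with DESeq2, and among the mutants after nutlin from 3 to 149 with DESeq2 and 63 without AH47A. The causes were not tested. Genes with few counts (Aldoc, P4ha2, Ndrg1, Slc16a3 in AH47A and Bhlhe40 in 287) are limited by depth.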

Other observations

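Within a line, single libraries stood apart in many of these genes, patterns chosen after their values were seen. In untreated line 287 the control and G280 libraries both lay below the other 4 constructs in 23 of the 36 genes (63.9%), against 8.17% of all genes. Bnip3 was at 9.42 and 7.18 CPM in these 2 libraries and at 20.8 to 31.1 CPM in the other 4, and Ankrd37 was at 6.84 and 7.07 CPM against 15.3 to 20.2 CPM. Egln3 was at 3.95 and 5.08 CPM against 7.02 to 21.2 CPM. In untreated AH47A the same held for 5 genes (13.9% against 4.8%) and in untreated 621 for 2 (5.56% against 7.38%). After nutlin it held for 10 genes in AH47A (27.8% against 6.3%), 4 in 287 (11.1% against 7.79%) and 0 in 621 (against 3.53%).

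In AH47A the R270H library was the highest of the 6 in both treatments for 15 of the 36 genes (41.7%), against 6.32% of all genes. Hk1 was at 67.04 CPM untreated and 60.8 CPM after nutlin there, and at 32.3 to 36.6 and 21.9 to 27.6 CPM with the other constructs. In 287 R270H was highest in 0 of the 36 genes and in 621 in 1. In 621 the G280 library was the highest in both treatments for 18 genes (50%), against 6.53% of all genes, and in AH47A and 287 for 1 each. With 1 library per line, construct and treatment, a clone, a culture or a library cannot be told apart from a construct.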
